A study of Rattus norvegicus with 8 samples.

Results

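The nuclear genes of the mitochondrial respiratory chain were followed in immune cells from rat livers. Members were taken by symbol alone: every gene row that begins with Nduf, Uqcr, Cox4 to Cox8 or Atp5, and Sdha to Sdhd, without regard to level or response. The rule found 97 rows among 32754 genes. They carry 94 symbols, because Cox6b1, Uqcrb and Ndufa1 are each listed under 2 identifiers, and reads could be split between such copies, so these rows are uncertain. The 13 Mt- genes, which the mitochondrion itself encodes, served as the comparison.

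Complexes I to IV pass electrons from NADH and succinate to oxygen, and complexes I, III and IV pump protons across the inner mitochondrial membrane. Complex V, the ATP synthase, uses the proton gradient to make ATP. Most subunits are encoded in the nucleus and imported, whereas a small core of complexes I, III, IV and V is encoded in mitochondrial DNA. Complex II is built from nuclear products only. Lymphocytes and myeloid cells use this chain to different degrees as they rest, divide or become activated.

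The animals were 4 male Han Wistar rats. NC1 and NC2 had been fed a choline-sufficient, amino acid-defined diet (CSAA) and served as negative controls, and PC1 and PC2 the choline-deficient counterpart (CDAA), a model of fatty liver disease. Liver immune cells of each animal were sequenced on the 10x Chromium system once fresh, without preservation, and once after cryopreservation in dimethyl sulfoxide (DMSO) and 3 weeks of storage, giving 8 libraries. Every library thus holds cells from a density gradient of a whole liver after lysis of erythrocytes, each diet has 2 animals, and the day of processing cannot be told apart from preservation.

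Each transcript was counted once by its unique molecular identifier (UMI) near its 3' end, so levels were not corrected for gene length. Whether different genes are counted equally well was not tested. Library totals were 18338700 to 26471843 UMIs, and barcodes with at least 500 UMIs were taken as cells, 3673 to 4771 per library with 87.0 to 92.1% of all UMIs. Pairs of libraries shared 13 to 36 cell barcodes. Levels are UMIs summed over cells scaled to 1e6 UMIs (counts per 1e6, CPM) or percent of UMIs. Cells were assigned to classes by lists of lineage markers, named here with the suffix -like. Most cells carried at least 2 markers of more than 1 list, so a lineage class is the list with the most markers. Cycling cells were set apart first, by at least 3 cycling markers, whatever their lineage markers. Hepatocyte markers summed to 232 to 495 CPM per library and endothelial markers to 80.7 to 202 CPM, and their part in the results was not tested. In sums over all cells, fewer cells of a type and less RNA per cell cannot be told apart.

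Members made up 2.26 to 2.57% of the UMIs of a library. The most abundant 10 rows held 36.0% of this sum and the most abundant 20 rows 56.7%. A mean level of at least 100 CPM was reached by 64 rows, 10 rows stayed under 1 CPM, and 6 rows had no UMI in any library. At these depths a level of 0 means not detected.

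Complex I had 37 rows of subunits with a median of 160 CPM. Its most abundant subunits were Ndufa6 with a mean of 368 CPM and Ndufb8 with 333 CPM. The 7 assembly factors, which help build complex I but are no part of it, had a median of 18.1 CPM. Complex II, succinate dehydrogenase, was led by its iron-sulfur subunit Sdhb with 199 CPM and its membrane anchor Sdhc with 158 CPM, while the catalytic subunit Sdha had 59.0 CPM. In complex III, cytochrome bc1, Uqcrh had 591 CPM and Uqcr10 had 390 CPM.

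Complex IV, cytochrome c oxidase, held the most abundant member, Cox4i1, with 1700 CPM, followed among its subunits by Cox6c with 804 CPM. The 10 rows of its ubiquitous subunits had a median of 726 CPM. Complex V was led by Atp5e with 1023 CPM and Atp5g2 with 757 CPM.

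Isoforms known from muscle, testis or hypoxic cells were rare or not detected. Cox7a1, Cox7b2, Cox8b, Cox8c and Ndufa4l2 had no UMI, Cox4i2 had 7 UMIs and Cox6a2 had 116 UMIs in all 8 libraries, and Cox6b2 reached 883 UMIs with 3.80 to 7.15 CPM per library. Ndufa4, named for complex I but known as a part of complex IV, had 329 CPM, and Cox7a2l, which links complexes III and IV in supercomplexes, had 708 CPM. Of the 3 genes for the same subunit c of the ATP synthase, Atp5g2 supplied 58.2 ± 1.68%, Atp5g1 28.6 ± 1.47% and Atp5g3 13.2 ± 0.216% of their joint UMIs in fresh cells (SD, n = 4 animals). After preservation these shares were 59.5 ± 2.49%, 27.8 ± 2.31% and 12.7 ± 0.352%, so the shares of Atp5g1 and Atp5g2 moved by less than 1 SD of the fresh libraries and that of Atp5g3 by more.

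To show the sequence that lies before members named in the comparison of preservation, promoters were read from RefSeq (build GRCr8). Of the 97 rows, 83 matched an entry by symbol or synonym, giving 81 promoters that span 250 bases before to 50 bases after the start. They were searched on both strands for motifs of factors known to drive respiratory genes. The NRF1 motif occurred in 15 member promoters, or 18.5%, against 6.09% of all 19005 promoters. The ETS motif CCGGAAG was found in 24.7% against 11.2%, the YY1 motif AANATGGCG in 21.0% against 4.00%, the ERRA motif TCAAGGTCA in 2.47% against 0.353%, and CCAAT in 33.3% against 38.4%. Matches can overlap, and a match is a description of letters, not of a bound site. The last 130 bases before the start are shown for the 4 members that rose after preservation and for Ndufc1 and Ndufa13, 2 members with the lowest fold changes, with the matches of these motifs in capitals.
Uqcrc2, chr1:184599110-184599239, plus strand, with ETS matches on the reverse strand: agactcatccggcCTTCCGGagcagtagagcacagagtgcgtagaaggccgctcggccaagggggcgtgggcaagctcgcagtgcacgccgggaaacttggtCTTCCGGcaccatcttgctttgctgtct
Atp5b, chr7:1099928-1100057, plus strand, with a CCAAT box: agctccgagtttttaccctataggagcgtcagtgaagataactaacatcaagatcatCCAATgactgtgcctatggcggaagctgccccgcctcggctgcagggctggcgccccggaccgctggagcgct
Ndufv1, chr1:210734892-210735021, minus strand, with none of the motifs: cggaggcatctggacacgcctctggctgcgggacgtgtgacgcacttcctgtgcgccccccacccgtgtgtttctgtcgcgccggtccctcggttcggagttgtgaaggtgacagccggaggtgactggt
Ndufa12, chr7:30658186-30658315, plus strand, with an NRF1 motif: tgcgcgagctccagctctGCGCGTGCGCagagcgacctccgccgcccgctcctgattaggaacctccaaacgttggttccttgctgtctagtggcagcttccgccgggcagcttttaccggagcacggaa
Ndufc1, chr2:137601736-137601865, minus strand, with none of the motifs: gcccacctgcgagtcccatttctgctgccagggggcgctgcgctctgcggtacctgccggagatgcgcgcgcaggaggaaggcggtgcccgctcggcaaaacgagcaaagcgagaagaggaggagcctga
Ndufa13, chr16:19560396-19560525, plus strand, with ETS matches on both strands and a YY1 motif: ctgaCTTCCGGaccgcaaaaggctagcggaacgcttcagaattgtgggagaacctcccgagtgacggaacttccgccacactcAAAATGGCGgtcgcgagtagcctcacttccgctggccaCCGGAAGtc
Within the stretches shown, the members that rose did not share 1 of these motifs. The labels above cover these stretches only, not the rest of each searched promoter.

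The first comparison asked whether DMSO cryopreservation altered the respiratory chain transcripts. Over all cells, the summed share of the members did not move in a common direction. Fresh libraries had 2.31, 2.26, 2.50 and 2.57% of UMIs from members (NC1, NC2, PC1, PC2). The preserved libraries of these animals had 2.37, 2.28, 2.49 and 2.55%. The share was higher after preservation in both NC animals and lower in both PC animals, and the paired differences averaged 0.0123 ± 0.0392 percentage points (SD over 4 animals). The share fell in complex I in 4 of 4 animals, to 0.993 times the fresh share, and rose in 4 of 4 animals in complexes III and V, each to 1.02 times the fresh share. Complex I was summed by symbol, with its assembly factors and Ndufa4. Its share went only from 0.588 to 0.587% in NC1 and from 0.656 to 0.655% in PC2. Ndufa4 alone fell from 332 to 306 CPM in PC2, so the fall in this animal depends on counting Ndufa4 here. Complexes II and IV went both ways. Among 9 classes with at least 14 cells in every library, only plasmacytoid dendritic-like cells rose in 4 of 4 animals, and 0 classes fell so. Of UMIs without Mt- genes, the share fell in 4 of 4 animals in 2 classes and rose so in 0. In NC1, NC2, PC1 and PC2, NK-like cells went from 2.29, 2.37, 2.50 and 2.54% to 2.28, 2.28, 2.45 and 2.49%. Fcgr3a myeloid-like cells went from 2.50, 2.53, 2.73 and 2.82% to 2.49, 2.50, 2.70 and 2.75%.

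The Mt- genes went down more than the members moved. They took 6.08, 8.22, 6.07 and 7.01% of UMIs in fresh cells of NC1, NC2, PC1 and PC2, and 5.21, 7.78, 5.78 and 5.28% after preservation. The decrease of 0.836 ± 0.645 percentage points on average was seen in 4 of 4 animals. The ratio of member to Mt- UMIs was 0.380, 0.275, 0.412 and 0.367 in fresh cells and 0.455, 0.293, 0.431 and 0.483 after preservation. Over all cells it was higher in 4 of 4 animals, by 0.0572 ± 0.0473, and NC2 had the lowest ratio in both states. Within the 9 classes, the ratio was higher in 4 of 4 animals in 3 and lower so in 0. The Mt- share was lower in 4 of 4 animals in 5 classes and higher so in 0. In PC1 the ratio fell from 0.459 to 0.428 in T-like and from 0.535 to 0.511 in cycling cells. No p is given for such sums. The mix of classes changed after preservation too, and its part in the results over all cells was not tested. In NC1, NC2, PC1 and PC2, NK-like cells went from 18.0, 28.7, 18.6 and 21.8% of cells to 8.85, 17.8, 17.8 and 28.4%. Plasmacytoid dendritic-like cells rose from 17.9, 12.2, 8.76 and 7.70% to 22.7, 17.7, 13.2 and 9.80%. Cycling cells rose from 1.89, 3.00, 1.62 and 2.85% to 2.94, 5.36, 2.61 and 4.60%.

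**Figure D1:**
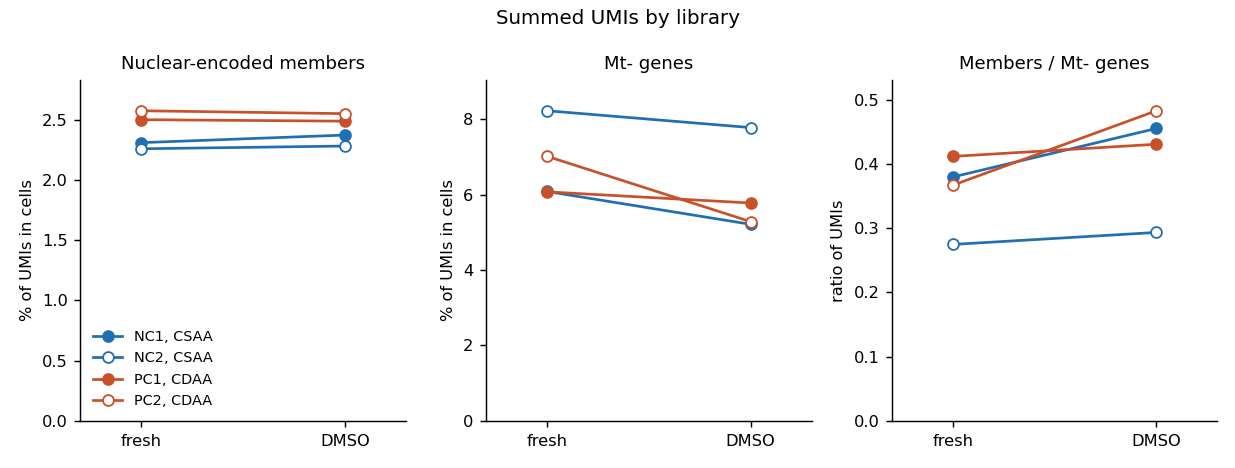
Percent of UMIs in cells from the nuclear-encoded members (left) and from the Mt- genes (middle), and the ratio of both (right), in fresh and DMSO cryopreserved cells, with 1 line per animal. Member shares lie between 2.26 and 2.57% in the 8 libraries and both PC animals lie above both NC animals in each state, whereas the Mt- share is lower after preservation in 4 of 4 animals.

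Gene by gene, edgeR's quasi-likelihood test with the animal as a block was applied to all 11505 genes that passed its filter on low counts, 88 members among them. At a Benjamini-Hochberg adjusted p under 0.05, 4 members rose and 0 fell, while 4.75% of all genes rose and 4.33% fell. The share of members that rose is thus near the background. Without adjustment 19 members had a p under 0.05. All changes of called members were under 2-fold. The members' fold changes were positive in 68 of 88 rows with a median of 0.06 on the log2 scale, against 49.6% of all genes with a median of -0.002. With library totals in place of TMM scaling, 2 members rose and 1 fell, 47 of 88 were positive and the median of all genes moved to -0.055. Relative to the median of all genes the members' median was 0.06 under both scalings.

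Uqcrc2, a core protein of complex III, had the lowest adjusted p among the members. Its level was 116, 104, 115 and 117 CPM in fresh cells of NC1, NC2, PC1 and PC2, and 134, 129, 131 and 129 CPM after preservation. The groups did not overlap. The log2 fold change was 0.27 (SE 0.0535, adjusted p = 0.0181, edgeR).

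Atp5b, the catalytic beta subunit of ATP synthase, had 514, 507, 551 and 610 CPM in fresh cells and 602, 605, 593 and 663 CPM after preservation. It was higher after preservation in 4 of 4 animals, although the preserved cells of PC1, NC1 and NC2 lay below the fresh cells of PC2. The log2 fold change was 0.23 (SE 0.0517, adjusted p = 0.0268, edgeR).

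Ndufv1, which carries the NADH binding site of complex I, rose from 92.7, 96.9, 101 and 109 CPM to 108, 113, 109 and 115 CPM, a log2 fold change of 0.21 (SE 0.0541, adjusted p = 0.0411, edgeR). Ndufa12, an accessory subunit of complex I, rose from 135, 134, 142 and 167 CPM to 146, 148, 149 and 189 CPM, a log2 fold change of 0.18 (SE 0.0463, adjusted p = 0.0437, edgeR). Each was higher in 4 of 4 animals, but the ranges of the fresh and the preserved libraries overlapped. The calls depend on single animals: without NC2, and likewise without PC1, 0 members passed, and without NC1 there were 7 calls, of which only Uqcrc2 rose. The share of all genes called in each of these fits is not given, so the counts cannot be set against a background.

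Over all members, 15 of 88 were higher after preservation in 4 of 4 animals, as were 12.2% of all genes tested. Lower in 4 of 4 animals were 8 members, against 20.7% of all genes.

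A few members of complexes I, III and IV had a pattern in which 1 animal differed from the other 3, and these were chosen after their values were seen. Ndufc1, a small accessory subunit of complex I, had 30.8 CPM in fresh cells of NC1 but 52.1, 53.9 and 49.7 CPM in those of NC2, PC1 and PC2. After preservation it had 36.4, 25.6, 27.2 and 25.8 CPM. Its level thus rose in NC1 and was nearly 2-fold lower in the other 3 animals. The log2 fold change over 4 animals was -0.64 (SE 0.183, adjusted p = 0.0581, edgeR), and without NC1 it was -0.95. NC1 was singled out after its values were seen, so a fit without it gives no separate support.

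Ndufa13, an accessory subunit of complex I also known as Grim19, showed the same order with 15.2, 22.0, 20.7 and 21.5 CPM in fresh and 17.4, 12.7, 14.5 and 13.8 CPM in preserved cells. Its log2 fold change was -0.39 (adjusted p = 0.116, edgeR), and without NC1 it was -0.61. The lower of the 2 rows named Uqcrb, ENSRNOG00000032204, had 57.8, 79.0, 88.3 and 93.3 CPM in fresh and 71.7, 61.0, 55.5 and 61.2 CPM in preserved cells, whereas the row ENSRNOG00000024967 had 277, 244, 297 and 333 CPM and then 282, 289, 312 and 342 CPM. The 2 rows of 1 symbol therefore moved in opposite directions in NC2, PC1 and PC2. Without NC1, the members called lower were Ndufc1, Ndufa13, Uqcrb ENSRNOG00000032204, Cox6b1 ENSRNOG00000034161, Ndufa3 and Ndufb4, at log2 fold changes of -0.95, -0.61, -0.51, -0.26, -0.23 and -0.23. These calls come from leaving out the animal that differed, and the share of all genes called in that fit is not given.

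**Figure D2:**
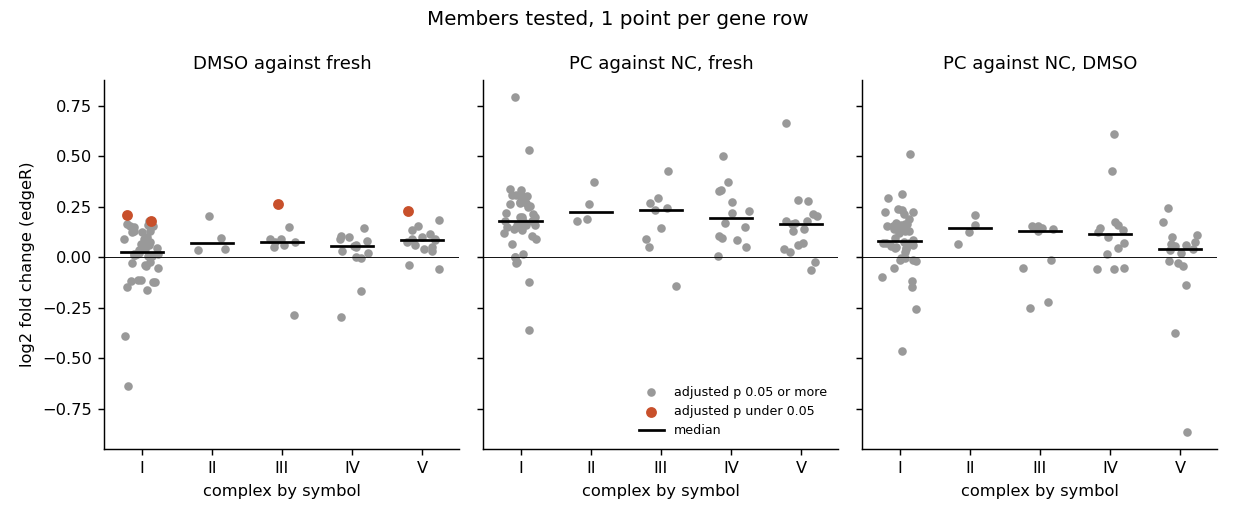
Log2 fold changes of the 88 members tested (points, 1 per gene row) by complex, after preservation (left), between diets in fresh libraries (middle) and between diets in DMSO libraries (right), with the median of each complex as a line. After preservation 4 members passed an adjusted p of 0.05, all above 0, and in fresh libraries 80 of 88 points lie above 0 between diets with none past the threshold.

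Among the Mt- genes 1 of 13 was called, Mt-nd6, which fell by 0.43 on the log2 scale (SE 0.105, adjusted p = 0.0339, edgeR). The others were not called, and 11 of 13 had a negative fold change. NC2 stood apart in single Mt- genes: Mt-nd1 had 15244 CPM in its fresh and 13786 CPM in its preserved cells, against 4771 to 7403 CPM in the other 6 libraries, and Mt-nd2 had 9580 and 9239 CPM against 2357 to 3387 CPM. Within classes, edgeR called 4 of 13 lower in NK-like and 2 of 13 in plasmacytoid dendritic-like cells (5.29 and 5.47% of all genes called). In B-like cells 2 of 11 were lower (2.27%). In Fcgr3a myeloid-like cells only Mt-atp8 was called, and it rose by 0.75 (adjusted p = 0.00226, edgeR, 3.02%). In classical monocyte-like, cycling and T-like cells 0 were called (1.78, 1.96 and 1.38%).

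The same comparison was made within classes that had at least 50 cells in every library. In NK-like cells, 86 members were tested, 1 rose and 3 fell, where 5.29% of all genes were called. Ndufc1 fell by 0.92 on the log2 scale (adjusted p = 0.00122, edgeR), from 29.3, 50.6, 51.4 and 49.5 CPM to 33.3, 26.2, 20.7 and 21.2 CPM in NC1, NC2, PC1 and PC2. Ndufa13 fell by 0.83 (adjusted p = 0.00885, edgeR), Uqcrb ENSRNOG00000032204 by 0.47 (adjusted p = 0.0141), and Uqcrc2 rose by 0.28 (adjusted p = 0.0442). With library totals in place of TMM scaling, 0 rose and 4 fell in this class. Here too NC1 went against the other 3 animals for Ndufc1.

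In plasmacytoid dendritic-like cells 4 of 86 members rose and 1 fell, where 5.47% of all genes were called. Sdha, the flavoprotein of complex II, rose from 57.8, 51.2, 63.8 and 80.4 CPM to 76.7, 63.6, 70.7 and 88.4 CPM, a log2 fold change of 0.29 (adjusted p = 0.0442, edgeR). Ndufs4, Uqcrc2 and Atp5b rose by 0.28, 0.26 and 0.23 (adjusted p = 0.0329, 0.0455 and 0.0251, edgeR). Ndufc1 fell by 0.66 (adjusted p = 0.0295, edgeR), from 36.0, 58.4, 65.6 and 57.2 CPM to 39.3, 29.2, 30.2 and 28.7 CPM. Library totals left 1 rise and 1 fall. Sdha, Ndufs4, Ndufc1 and Ndufa13 lie outside the rule for named genes and were chosen after their values were seen.

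In classical monocyte-like, Fcgr3a myeloid-like and cycling cells edgeR called 0 members, at 4, 16 and 8 members with an unadjusted p under 0.05, where 1.78, 3.02 and 1.96% of all genes were called. In cycling cells Uqcrc2 had 134 to 157 CPM before and 136 to 152 CPM after preservation. With library totals, 3 members were called lower in Fcgr3a myeloid-like, 1 in cycling and 0 in classical monocyte-like cells, and 0 were called higher. Without NC1, 1, 6 and 2 members were called in classical monocyte-like, Fcgr3a myeloid-like and cycling cells, all lower. Ndufc1 was among them in each class, at log2 fold changes of -0.85, -0.83 and -1.05. NC1 was singled out after its values were seen, and the shares of all genes called under these alternatives are not given. B-like and T-like cells fell short of 50 cells, with 49 and 45 cells in the smallest library. In the same test edgeR called 0 of 76 and 0 of 79 members there, with 5 in each at an unadjusted p under 0.05, where 2.27 and 1.38% of all genes were called.

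The second comparison asked whether the choline-deficient diet went along with another level of the chain. Members took a larger share of UMIs in both PC animals than in both NC animals. In fresh cells the mean was 2.54% in PC and 2.28% in NC, and the lowest PC library lay 0.191 percentage points above the highest NC library. After preservation the means were 2.52 and 2.33%, and the gap was 0.115 percentage points. Each of the 5 complexes showed the same order in fresh cells, with ratios of PC to NC from 1.09 for complex V to 1.15 for complex II. The Mt- share overlapped between the diets. The order of the member share was lost in the 293 to 578 cells per library left after removing cells with at least 2 markers of each of 2 lineages. There it was 1.89 and 1.81% in fresh NC against 1.95 and 1.73% in fresh PC libraries, and in DMSO libraries both PC, with 1.93 and 1.92%, lay below both NC, with 2.05 and 1.97%. These cells had Mt- shares of 19.7 and 29.6% in fresh PC libraries, above both NC libraries with at most 18.2%, and of the UMIs without Mt- genes the members took 2.17 and 2.21% in NC and 2.42 and 2.46% in PC. In DMSO libraries their Mt- shares were 9.15 and 14.4% in NC and 17.1 and 17.8% in PC. Of the UMIs without Mt- genes, members there took 2.25 and 2.30% in NC and 2.330 and 2.335% in PC. On this measure both PC thus lay above both NC libraries in either state. The part of the Mt- share in the turned order was not tested.

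By gene, edgeR called 0 of 88 members between diets in fresh libraries, where 1.18% of 11772 genes were called, and 14 members had an unadjusted p under 0.05. DESeq2 called 1 member, Ndufaf7, an assembly factor that methylates a complex I subunit. Fold changes were positive in 80 of 88 members with a median of 0.18 on the log2 scale, against 47.8% of all genes with a median of -0.02. With 2 animals against 2, the PC and NC levels did not overlap and were higher in PC for 57 of 88 members, against 24.0% of all genes, and lower for 1 member, against 29.0% of all genes. In DMSO libraries edgeR again called 0 members, with 3 at an unadjusted p under 0.05, and DESeq2 called 0, where 0.642% of 11364 genes were called. There 46 members were higher in PC without overlap, against 23.7%, and 4 were lower, against 22.3%. The fresh and DMSO libraries are from the same animals, so these counts are not independent. Of the test for a different response to preservation in PC and NC, 0 members passed with edgeR and 0 with DESeq2, with 3 at an unadjusted p under 0.05, where 0.0329% of 12163 genes were called.

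Ndufaf7 had the largest difference between diets in fresh cells, with 38.5 and 26.0 CPM in NC1 and NC2 and 58.4 and 52.0 CPM in PC1 and PC2. The log2 fold change was 0.80 (SE 0.191, adjusted p = 0.112, edgeR), and without NC1, with NC2 as the only NC animal, it was 1.08. After preservation the levels were 37.7, 24.8, 48.1 and 42.5 CPM. The groups did not overlap in either state. Ndufaf7 was also higher in the myeloid classes, as given below. Fcgr3a myeloid-like cells made up 37.1 and 36.8% of fresh PC and 23.5 and 18.9% of fresh NC cells. The part of this mix in the difference between diets was not tested.

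Cox6c, an abundant small subunit of complex IV, had 701 and 726 CPM in fresh NC and 903 and 918 CPM in fresh PC cells (log2 fold change 0.37, SE 0.101, adjusted p = 0.136, edgeR). After preservation it had 763, 730, 848 and 840 CPM. Cox4i1 did not separate the diets as far, with 1706 and 1583 CPM in fresh NC and 1749 and 1745 CPM in fresh PC cells. Sdhb overlapped, with 207 and 165 CPM in NC and 197 and 217 CPM in PC.

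The order of the diets was also seen within classes, which all come from the same animals, so their counts are not independent. Of the UMIs that did not come from Mt- genes, the member share was higher in both PC than in both NC fresh libraries in 9 of 9 classes, and in DMSO libraries in 8 of 9, with neutrophil-like cells (14 to 72 cells per library) the exception. The Mt- share showed this order in 0 of 9 classes in either state, and in fresh NK-like cells it was lower in both PC than in both NC libraries. Within classes edgeR called 0 members between diets in fresh libraries: NK-like (14 with an unadjusted p under 0.05, background 1.57%), plasmacytoid dendritic-like (4, background 0.981%), classical monocyte-like (3, background 0.941%), Fcgr3a myeloid-like (8, background 1.29%) and cycling cells (6, background 4.32%). The same held in B-like (3, background 0.555%) and T-like cells (2, background 0.262%). Without NC2, NC1 is the only NC animal, and its fresh cells were low in Ndufc1. The log2 fold change of Ndufc1 was then 0.85 in NK-like and 0.87 in Fcgr3a myeloid-like cells. Without NC1, that of Ndufaf7 was 0.90 and 0.75, with NC2 as the only NC animal.

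Several other measures moved with the diet, and their part in the member share was not tested. PC cells had more UMIs, with medians of 4309 and 4288.5 per cell in fresh PC1 and PC2 against 3605 and 3712.5 in fresh NC1 and NC2, and the member share rises with UMIs per cell. In NC1 fresh cells it went from 2.13% of UMIs without Mt- genes in cells of 500 to 2000 UMIs to 2.61% in cells of at least 10000 UMIs, and in PC2 fresh cells from 2.43 to 2.94%. At each of 4 ranges of UMIs per cell, both PC lay above both NC fresh libraries. T-like cells numbered 116 and 45 in fresh PC and 397 and 377 in fresh NC libraries, and Fcgr3a myeloid-like cells 1607 and 1692 against 1119 and 839. Cytosolic ribosomal protein genes took 23.1 and 21.2% of UMIs in fresh PC and 23.9 and 25.7% in fresh NC cells.

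The third comparison set the classes of fresh cells against each other. As a share of UMIs without Mt- genes, members were lowest in neutrophil-like cells with 1.91 ± 0.195% and B-like cells with 2.23 ± 0.0951% (SD, n = 4 animals). T-like cells had 2.40 ± 0.157% and NK-like cells 2.43 ± 0.119%, with NK-like cells higher in both NC animals and T-like cells in both PC animals. Fcgr3a myeloid-like, classical monocyte-like, plasmacytoid dendritic-like and Kupffer-like cells had 2.65 ± 0.155, 2.65 ± 0.17, 2.73 ± 0.125 and 2.77 ± 0.247%. All classes come from the same 4 animals, and these SDs include the difference between diets. Plasmacytoid dendritic-like cells had 2.62, 2.63, 2.78 and 2.88% in NC1, NC2, PC1 and PC2. In each animal they lay above Fcgr3a myeloid-like (2.50, 2.53, 2.73 and 2.82%) and classical monocyte-like cells (2.45, 2.59, 2.70 and 2.85%). Cycling cells, which express genes of DNA replication and mitosis, were highest with 2.86 ± 0.159%. They also had the most UMIs, a median of 8490 to 13196 per cell. Neutrophil-like cells had the fewest of these 9 classes, a median of 1207 to 1413 per cell, and numbered 17 to 72 per library. Among cells of 2000 to 8000 UMIs only, cycling cells had 2.70 ± 0.0944%, close to Kupffer-like, Fcgr3a myeloid-like and classical monocyte-like cells at 2.71 ± 0.113, 2.68 ± 0.14 and 2.66 ± 0.173%, and B-like cells had 2.23 ± 0.103%. Plasmacytoid dendritic-like cells of that range had 2.64 ± 0.121% and lay below Fcgr3a myeloid-like cells in each animal, though barely in NC1 (2.535 against 2.536%). In that range cycling cells numbered 20 to 41 and Kupffer-like cells 11 to 30 per library, and neutrophil-like cells were too few to be given.

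The Mt- genes followed another order. Their share was highest in Kupffer-like cells with 9.95 ± 2.63% and in classical monocyte-like cells with 8.42 ± 1.9%, and of the 9 classes with at least 14 cells per library it was lowest in cycling cells with 5.68 ± 0.794%. Mast or basophil-like cells, only 3 to 26 per fresh library, had 4.26, 5.89, 4.00 and 4.29%. The ratio of member to Mt- UMIs was therefore 0.482 ± 0.0763 in cycling and 0.262 ± 0.0651 in Kupffer-like cells. At 2000 to 8000 UMIs, fresh cycling cells had Mt- shares of 6.38, 8.34, 6.09 and 5.85% in NC1, NC2, PC1 and PC2. T-like cells had 5.21, 6.98, 4.95 and 5.70% and NK-like cells 5.58, 7.43, 5.14 and 5.52%, below cycling cells in each animal. Kupffer-like and classical monocyte-like cells lay above cycling cells in each animal. B-like, plasmacytoid dendritic-like and Fcgr3a myeloid-like cells went both ways. Cycling cells were thus not lowest there, and ratios there are not given. Cells in which Mt- genes made up at least 20% of UMIs had lower member shares of the remaining UMIs than cells of 5 to 10%, for example 2.20 against 2.47% in NC1 and 2.43 against 2.80% in PC2, and their median UMI count was 792 to 930 in fresh libraries.

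**Figure D3:**
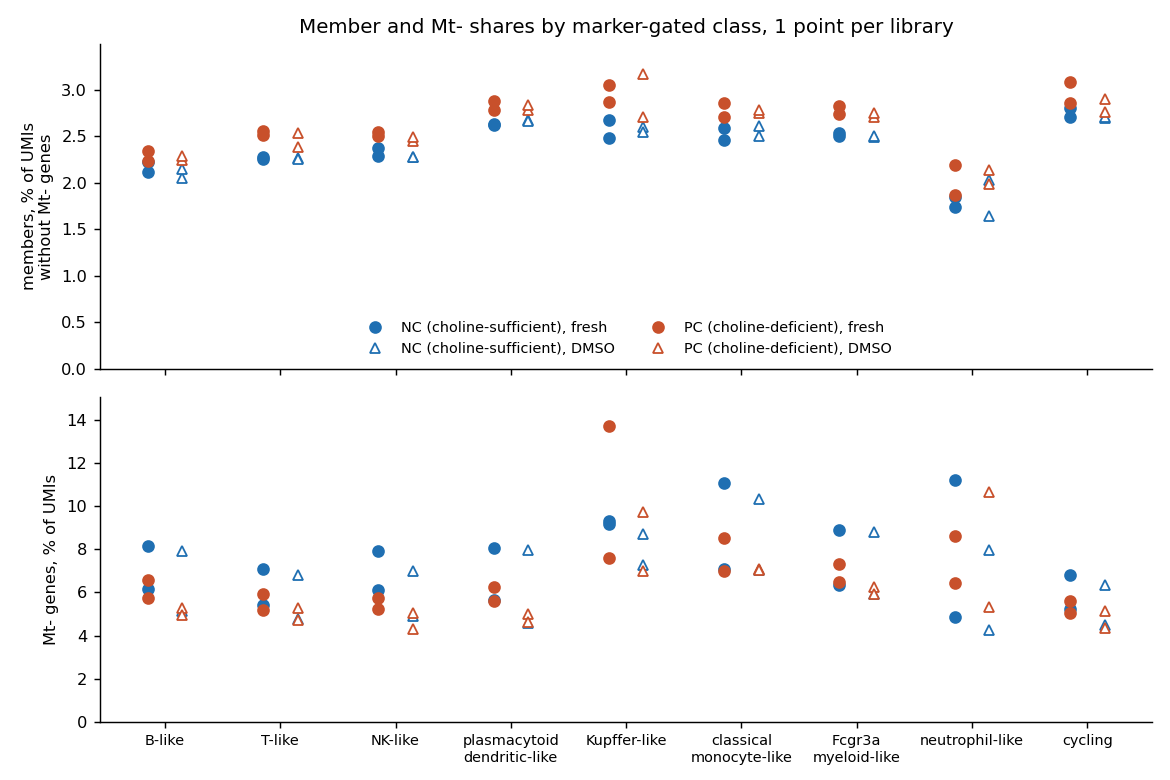
Member share of UMIs without Mt- genes (top) and Mt- share of all UMIs (bottom) in 9 marker-gated classes, 1 point per library. Member shares of fresh cells average from 1.91% in neutrophil-like to 2.86% in cycling cells with PC above NC, while Mt- shares of fresh PC and NC libraries overlap in 8 of the 9 classes and are lower in PC in NK-like cells.

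Single members were compared between 7 classes with at least 40 cells in each fresh library, each class against the mean of the other 6, with edgeR and the animal as a block. The test covered 8667 genes and 84 members. In classical monocyte-like cells 33 members were higher and 3 lower at an adjusted p under 0.05, where 14.6% of all genes were higher and 12.2% lower. In cycling cells 36 were higher and 5 lower (17.3 and 14.2% of all genes), and in Fcgr3a myeloid-like cells 26 and 16 (23.8 and 25.6%). B-like cells had 2 higher and 33 lower (11.7 and 12.2%), NK-like cells 4 and 28 (17.5 and 18.8%), T-like cells 6 and 12 (12.7 and 12.5%) and plasmacytoid dendritic-like cells 14 and 17 (22.4 and 22.6%).

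These splits depend on the scaling in 4 classes. With library totals, the counts of members higher and lower were 12 and 8 in classical monocyte-like, 30 and 6 in plasmacytoid dendritic-like, 7 and 19 in NK-like and 3 and 26 in T-like cells. They were 55 and 2 in cycling, 23 and 19 in Fcgr3a myeloid-like and 2 and 36 in B-like cells. The median of all genes moved with the scaling, from -0.083 to -0.209 in classical monocyte-like, from -0.014 to 0.087 in plasmacytoid dendritic-like and from -0.02 to 0.087 in cycling cells. Relative to that median the members' median was 0.21 in classical monocyte-like cells under both scalings, 0.18 in cycling, 0.02 in plasmacytoid dendritic-like, -0.14 and -0.13 in B-like and -0.08 in NK-like cells.

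**Figure D4:**
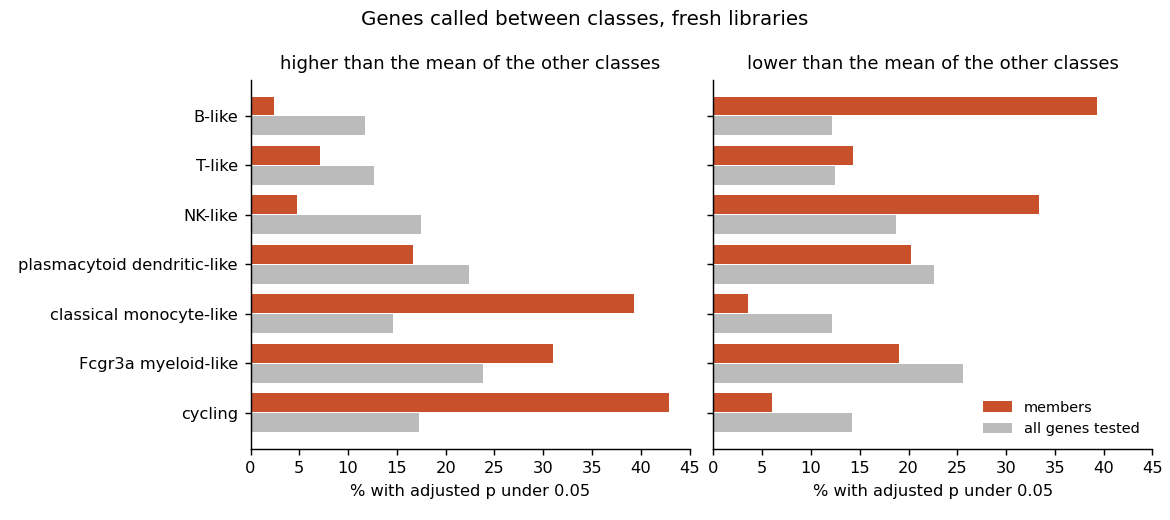
Percent of the 84 members (red) and of all 8667 genes tested (grey) that were higher (left) or lower (right) in a class than in the mean of the other classes of fresh cells, at an adjusted p under 0.05 with TMM scaling. B-like cells had 33 members lower and 2 higher, and cycling cells 36 higher and 5 lower.

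Differences of at least 2-fold were rare. They were met by 0 members in B-like, T-like, NK-like and plasmacytoid dendritic-like cells, where 8.38, 6.05, 6.02 and 9.39% of all genes passed, by 2 in classical monocyte-like (9.61%), 2 in Fcgr3a myeloid-like (8.87%) and 1 in cycling cells (6.70%). In the 4 classes with none, edgeR gave 47, 28, 40 and 34 members an unadjusted p under 0.05 whatever the fold. Among 74 members with at least 50 CPM in their highest class, the highest class mean was a median of 1.42 times the lowest, with a maximum of 3.26. Cycling cells were the highest class for 42 of these members and plasmacytoid dendritic-like cells for 14, while B-like cells were the lowest for 38.

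Ndufaf7 had the largest ratio and separated the myeloid classes from the rest. It had 84.2, 50.6, 84.8 and 86.6 CPM in classical monocyte-like cells of NC1, NC2, PC1 and PC2 and 67.6, 46.5, 87.2 and 74.1 CPM in Fcgr3a myeloid-like cells. In T-like, NK-like, B-like, cycling and plasmacytoid dendritic-like cells its means were 23.5, 26.1, 30.9, 28.5 and 31.5 CPM. The log2 difference was 1.35 (adjusted p = 1.1e-11) in the first and 1.06 (adjusted p = 4.8e-15) in the second class, by edgeR. In each animal both classes lay above the other 5 classes tested, and NC2 was the lowest animal in both.

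Of the 7 classes tested, Ndufa4 had its lowest mean in NK-like cells, with 216, 188, 220 and 223 CPM, and its highest in plasmacytoid dendritic-like cells, with 446, 415, 460 and 507 CPM. B-like cells had 463, 422, 417 and 472 CPM, so that this gene stood high in a class in which most members stood low. The log2 differences were -0.78 in NK-like (adjusted p = 9.2e-12), 0.45 in plasmacytoid dendritic-like (adjusted p = 1.7e-07) and 0.51 in B-like cells (adjusted p = 2.8e-06, edgeR). The NK-like range lay below the range of these classes.

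Cox7b, a small subunit of complex IV, had 499, 476, 457 and 449 CPM in cycling and 198, 242, 258 and 195 CPM in B-like cells. The log2 difference was 0.55 in cycling (adjusted p = 1.2e-09) and -0.53 in B-like cells (adjusted p = 2.4e-06, edgeR). Sdhb had 256, 240, 276 and 334 CPM in plasmacytoid dendritic-like cells and 135, 142, 130 and 142 CPM in B-like cells, with a log2 difference of 0.61 in the former (adjusted p = 2.7e-11, edgeR). Sdhb lay between 120 and 166 CPM in T-like and NK-like cells. Plasmacytoid dendritic-like cells were above the other 6 classes for Sdhb in each animal.

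Uqcrb ENSRNOG00000032204 ranged from 49.8 ± 6.74 CPM in T-like to 105 ± 16.6 CPM in cycling cells. Its log2 difference was 0.37 in Fcgr3a myeloid-like (adjusted p = 4e-05) and -0.46 in T-like cells (adjusted p = 0.0023, edgeR). Cox4i1, by contrast, had means of 1393 to 1903 CPM over the 7 classes.

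Atp5b had a mean of 787 CPM in cycling cells and of 484 to 623 CPM in the other 6 classes, a log2 difference of 0.47 (adjusted p = 3.1e-10, edgeR). The lowest library of cycling cells, with 724 CPM, lay below the highest of plasmacytoid dendritic-like cells, with 736 CPM, and above every library of the other 5 classes.

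**Figure D5:**
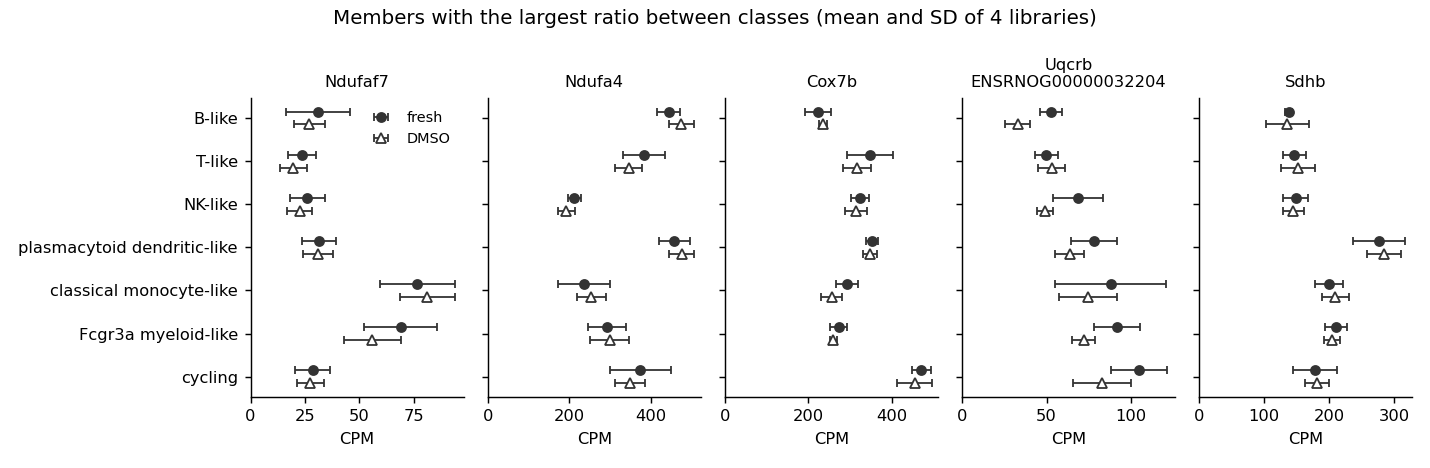
Mean CPM (points) and SD (bars) over 4 libraries of the 5 members with the largest ratio between classes, in fresh (filled) and DMSO cryopreserved cells (open). Ndufaf7 is highest in classical monocyte-like and Fcgr3a myeloid-like cells and the mean of Ndufa4 is lowest in NK-like cells, in both states.

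The remaining 2-fold differences were in scarce members. Cox6b2, a testis isoform of a complex IV subunit, was lower in Fcgr3a myeloid-like cells by 1.03 on the log2 scale and higher in cycling cells by 1.12, but the latter difference was 0.57 (adjusted p = 0.173, edgeR) without NC1. The former fell just short of 2-fold without NC2, at -0.995, and without PC1, at -0.988, with adjusted p of 0.00541 and 0.0203 (edgeR). Ndufaf2, an assembly factor named after its values were seen, was lower in classical monocyte-like cells by 1.11 on the log2 scale, but was not called with DMSO libraries in place of fresh ones (-0.29, adjusted p = 0.458, edgeR), nor without NC1 or without PC1.

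Other genes of the same metabolism were counted for comparison, from lists of pathway members. After preservation Fh, the fumarase of the tricarboxylic acid cycle, rose by 0.37 on the log2 scale (SE 0.0704, adjusted p = 0.0137, edgeR), and Idh3g, a subunit of its NAD-dependent isocitrate dehydrogenase, rose by 0.25 (SE 0.0592, adjusted p = 0.0299, edgeR). Of 14 electron carriers and shuttles 2 rose, the ADP/ATP carrier Slc25a4 by 0.27 and cytochrome c, Cycs, by 0.23. Of 72 mitochondrial ribosomal proteins 4 rose, a share near the 4.75% of all genes that rose, and of 30 other assembly factors and 15 regulators none was called by edgeR. Of 13 genes of mitochondrial stress 2 rose and 1 fell, namely Atf4 at a log2 fold change of 0.58, Hspd1 at 0.25 and Sod2 at -0.31. Of 16 glycolytic genes 3 rose and 1 fell, Pfkp. Cytosolic ribosomal protein rows had 33 of 117 higher and 2 lower, and 1 of the 2 was the kinase Rps6ka2, taken in by its symbol.

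Between diets, Slc25a4 was higher in fresh PC cells by 1.15 on the log2 scale (adjusted p = 0.0226, edgeR) and the peroxidase Prdx5 by 1.05 (adjusted p = 0.0388). Prdx5 was higher in PC after preservation too, by 1.04 (adjusted p = 0.0299). No other gene of these lists was called between diets by edgeR. Glycolytic genes took 0.286 and 0.275% of UMIs in fresh NC and 0.368 and 0.406% in fresh PC cells, and electron carriers and shuttles 0.265 and 0.249% against 0.313 and 0.332%. Both lists thus showed the order of the respiratory chain members. So did the other assembly factors, the regulators, the genes of mitochondrial stress and the mitochondrial ribosomal proteins, the last with 0.519 and 0.499% against 0.526 and 0.535%. In fresh libraries the order of the summed shares was therefore not particular to single lists, and cytosolic ribosomal proteins had the opposite order. By gene, fold changes in fresh libraries were positive in only 17 of 31 other assembly factors and 9 of 15 regulators. They were positive in 9 of 13 genes of mitochondrial stress, 12 of 14 carriers and shuttles, 13 of 16 glycolytic genes and 58 of 72 mitochondrial ribosomal proteins. In DMSO libraries the regulators overlapped, with 0.0294 and 0.0289% in NC and 0.0290 and 0.0324% in PC.

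Barcodes of 10 to 100 UMIs, which are too shallow to be counted as cells here, were examined in the same way. Their member share was 2.60 ± 0.12% in fresh and 2.67 ± 0.201% in preserved libraries (SD, n = 4). Their Mt- share was 9.39 ± 3.49% and 5.22 ± 1.76%, so the ratio of member to Mt- UMIs rose from 0.302 ± 0.0962 to 0.557 ± 0.18, again in 4 of 4 animals. Of UMIs without Mt- genes, members took 2.75 and 2.69% in these barcodes of fresh NC and 2.95 and 3.08% in those of fresh PC libraries. In DMSO libraries they took 2.81 and 2.58% in NC and 2.90 and 2.98% in PC. Both PC thus lay above both NC libraries in either state, as within cells. The part of the RNA of these barcodes in the ratio within cells, and in the order of the diets within classes, was not tested.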

How the data were processed

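Single-cell 3' RNA-seq libraries of rat liver immune cells were made with 10x Chromium. The authors counted UMIs with Cell Ranger 2.1.1 (STAR aligner), after bcl2fastq 2.17.1.14 per the submitters' processing notes, and deposited raw counts of every gene and barcode, 1 matrix per library. Whether doublets had been removed is not given in the sources used here, and no doublet caller was run.

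Barcodes with at least 500 UMIs and 100 genes were kept (Python 3.11.15, pandas 2.3.3, scipy 1.17.1, matplotlib 3.10.9). A cell with at least 3 detected cycling markers was called cycling, whatever its lineage markers. Any other cell went to the lineage list of 8 markers with the most detected markers, at least 2. Cells with a tie or with fewer markers were left without a class. UMIs were summed per library and class. Counts were tested with edgeR 4.0.16 (R 4.3.3) by the quasi-likelihood test with TMM scaling, its filter on low counts and Benjamini-Hochberg adjustment over all genes tested, after a test on simulated data. Preservation was tested with the animal as a block, since both libraries of a number come from the same animal. Deviations of same-numbered libraries correlated at 0.583 to 0.732, against at most 0.337 otherwise.

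Animals are the replicates. The members and lists were chosen with earlier results of these data known. Named genes were the 2 most abundant subunits per complex, members called after preservation, restricted isoforms and the 5 largest ratios between classes. Ndufc1, Ndufa13, Sdha in the preservation results, Ndufs4, Ndufaf2, Ndufa3, Ndufb4 and the single Cox6b1 rows lie outside this rule, as do the genes of the pathway lists, which are those called, and were named after their values were seen. Alternatives were DESeq2 1.42.0, other scalings, filters and gates, and each animal left out. Added after seeing the data were the counts between classes by adjusted p alone, the scalings within and between classes, cells of 2000 to 8000 UMIs, and the summed shares without cells carrying markers of more than 1 lineage. The summary of the tricarboxylic acid cycle list is not reported here.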

Additional observations from a re-analysis of the deposited data

Results flagged for a closer look

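In 96 groups of 4 libraries over 32 measures, 4 values stood apart from the other 3, where chance flags about 1 in 20 groups. Atp5b had 663 CPM and Ndufa12 had 189 CPM in the DMSO library of PC2, against 593 to 605 and 146 to 149 CPM in the other DMSO libraries. Ndufa4 had 274.5 CPM in the fresh library of NC2, against 332 to 338 CPM. The log2 ratio of the complex II share after preservation to that before was -0.029 in PC1, against 0.036 to 0.046 in the other animals.

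For 5 of the 32 measures both NC animals moved one way after preservation and both PC animals the other. These differences were not tested, and with so few animals such a split can also arise by chance. The mean log2 ratio of DMSO to fresh in PC minus that in NC was -0.037 for the member share of all UMIs, -0.042 for the member share of UMIs without Mt- genes, 0.047 for Cox4i1, -0.17 for Cox6c and 0.085 for Atp5g1.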

How the results depend on the processing

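After preservation 4 members were called in all cells, with the animal as a block. There were 2 with DESeq2 and 2 with library totals without the Mt- genes, 0 without cells carrying at least 2 markers of more than 1 lineage, which leaves 293 to 578 cells per library, and 0 to 7 when 1 animal was left out. Without the replicate block there were 0 in all cells, 0 over the 5 classes (9 with it), 0 in NK-like and 0 in plasmacytoid dendritic-like cells, and members higher and lower between classes by adjusted p alone were 76 and 53 (121 and 114 with it). Leaving out 1 animal gave 0 to 18 calls over the 5 classes, 0 to 3 in NK-like (4 with all animals) and 0 to 6 in plasmacytoid dendritic-like cells (5 with all), where a gate of 1 marker more gave 3 and library totals gave 2.

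Between diets in fresh libraries, where edgeR called 0, DESeq2 gave 1, no filter on low counts gave 1, and leaving out 1 animal gave 0 to 2 calls in all cells and 0 to 10 over the classes. It gave 0 to 1 in DMSO libraries and 0 to 2 for the interaction, where leaving out cells with markers of more than 1 lineage gave 1. That same cell filter lowered the members with a positive difference between diets from 80 to 49 in fresh and from 64 to 27 in DMSO libraries, and turned Ndufv1 after preservation from 0.21 to -0.13 on the log2 scale. The cause was not tested. Of 194 fold changes of named genes under alternatives, 117 stayed on their side of the threshold with their direction, 71 lost the call, 5 gained it and 1 reversed. The same cell filter, applied to the summed shares of all UMIs after seeing the data, moved the change of the member share after preservation from 0.0123 to 0.124 percentage points and turned the difference of PC minus NC from 0.253 to -0.0107 in fresh and from 0.192 to -0.0828 in DMSO libraries. Of the UMIs without Mt- genes, both PC lay above both NC libraries after this filter, in either state. Under the other alternatives run, the summed shares moved by less than 1 SD. With 2 animals per diet and small classes, depth and number of animals limit what could be called.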
